A study of Mus musculus with 12 samples.

Results

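Lysosomes were examined through 37 genes in RNA sequencing of mouse cardiac fibroblasts. The genes are Gpnmb, 10 cathepsins, 5 lysosomal membrane proteins, 3 transcription factors of the MiT/TFE family, 12 other hydrolases and helper proteins, 5 proton pump genes and the autophagy receptor Sqstm1. They were selected on gene function, with earlier results of these data known, and make up 37 of the 24619 gene symbols in the deposited count table. Gpnmb and Ctsk were set apart because their differences between the groups had been seen, so for these 2 genes values are given as a description and no test. The other 35 genes are counted from a fit over all genes, and since their values were known too, the counts describe them. All 37 passed the filter on low counts, as did 14400 genes in all.

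According to the labels the cells were primary fibroblasts of the mouse heart, grown with 10% serum, starved for 12 h and then given conditioned medium from cultured adipocytes for 24 h. All groups share this handling, and each has 3 libraries. VEC_CM received medium of adipocytes that carried a vector lentivirus, and OE_CM medium of adipocytes that overexpressed the human microRNA hsa-miR-548ay. TGF_VEC_CM combined TGF-beta1 with medium of vector adipocytes, and TGF_KD_CM combined TGF-beta1 with medium of adipocytes in which hsa-miR-548ay was inhibited. In both OE_CM and TGF_KD_CM, the treatment labels of replicates 2 and 3 read miR-549ay and miR-550ay. Groups were taken from the sample titles, and these names were assumed to be numbering that ran on from replicate 1. Strain, age and sex of the mice, the dose of TGF-beta1 and the kind of adipocyte are not stated in the labels. Separate cultures are not mentioned for the 3 libraries of a group, so a p-value reflects the spread among those libraries and may cover technical variation alone. In bulk RNA, fewer cells of a type and less RNA per cell cannot be told apart.

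Lysosomes are acidic compartments in which proteins, glycans and lipids are broken down. A proton pump, the V-ATPase, acidifies them, cathepsins cut proteins, and glycosidases and lipases release sugars and fatty acids. TFEB and its relatives TFE3 and MITF bind short E-box elements (CACGTG and close variants, called CLEAR elements) before many lysosome genes, and mTORC1 at the lysosome surface holds TFEB and TFE3 in the cytoplasm by phosphorylation. Their messenger RNA therefore does not show their activity. Gpnmb is a transmembrane glycoprotein of lysosomes and melanosomes known from macrophages under lysosomal stress, and Ctsk is the collagen-cutting cathepsin of osteoclasts that fibroblasts make as well.

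Most of the lysosome genes were lower with overexpression medium and higher with inhibition medium, and among the 37 genes Gpnmb had the largest difference in each comparison of groups except for Gla under inhibition medium. Gpnmb took the same direction as most of them in all 3 comparisons of groups. Ctsk did so in 2 of them, and differed by -0.01 on the log2 scale between OE_CM and VEC_CM. In CPM, which are counts scaled by normalised library size, the 35 other genes summed to 6552 ± 62.5 in VEC_CM (mean ± SD, n = 3), 6232 ± 37.7 in OE_CM, 5879 ± 69.9 in TGF_VEC_CM and 7184 ± 62.5 in TGF_KD_CM. In FPKM (fragments scaled by gene length and library total) the lowest sum of the 35 was that of OE_CM, at 2115 ± 18.6. TGF_VEC_CM had 2187 ± 20.5, VEC_CM 2336 ± 22.4 and TGF_KD_CM 2580 ± 21.8. The order of the 2 lowest groups thus depends on the scaling. Library totals ran from 33379207 to 37226153 counts, of which the 37 genes took 0.647% to 0.856%.

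Gpnmb stood at 1170.4, 1145 and 1194 CPM in the VEC_CM libraries, at 607, 581 and 581 CPM in OE_CM, at 614, 578 and 614 CPM in TGF_VEC_CM and at 1163, 1130.4 and 1160.0 CPM in TGF_KD_CM. The libraries of VEC_CM and TGF_KD_CM were high, those of OE_CM and TGF_VEC_CM low, and no low library reached a high one. The mean was 1169.6 ± 24.5 CPM in VEC_CM and 589.9 ± 15 CPM in OE_CM (SD, n = 3), 1.98 times lower, a log2 fold change of -0.99 ± 0.024 (SE). TGF_VEC_CM differed from VEC_CM by -0.96 ± 0.024, and TGF_KD_CM from TGF_VEC_CM by 0.94 ± 0.024, on the same scale. In CPM the ranges of VEC_CM and TGF_KD_CM overlapped, and so did those of OE_CM and TGF_VEC_CM. Neither pair was tested. Per length, Gpnmb was among the most abundant of the 37 genes, at 307 ± 6.66 FPKM in VEC_CM (fragments scaled by gene length and library total), below Cd63 with 359 ± 3.96 FPKM and Psap with 345 ± 3.98 FPKM. In FPKM the OE_CM libraries, at 144 to 151, lay below those of TGF_VEC_CM, at 157 to 166. The overlap of OE_CM and TGF_VEC_CM thus depends on the scaling.

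Ctsk stood at 59.8, 61.8 and 59.9 CPM in the VEC_CM libraries, at 62.5, 57.6 and 59.6 CPM in OE_CM, at 36.1, 39.5 and 41.3 CPM in TGF_VEC_CM and at 55.3, 58.2 and 59.4 CPM in TGF_KD_CM. The libraries of TGF_VEC_CM were below all 9 others, and OE_CM overlapped both VEC_CM and TGF_KD_CM. The log2 fold change was -0.01 ± 0.046 (SE) for OE_CM against VEC_CM, -0.63 ± 0.047 for TGF_VEC_CM against VEC_CM and 0.56 ± 0.047 for TGF_KD_CM against TGF_VEC_CM. The first is smaller than its SE, and Gpnmb and Ctsk part in that comparison. Across 22 alternative analyses the value of Ctsk in it ran from -0.10 to 0.02, and that of Gpnmb from -1.07 to -0.97.

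**Figure D1:**
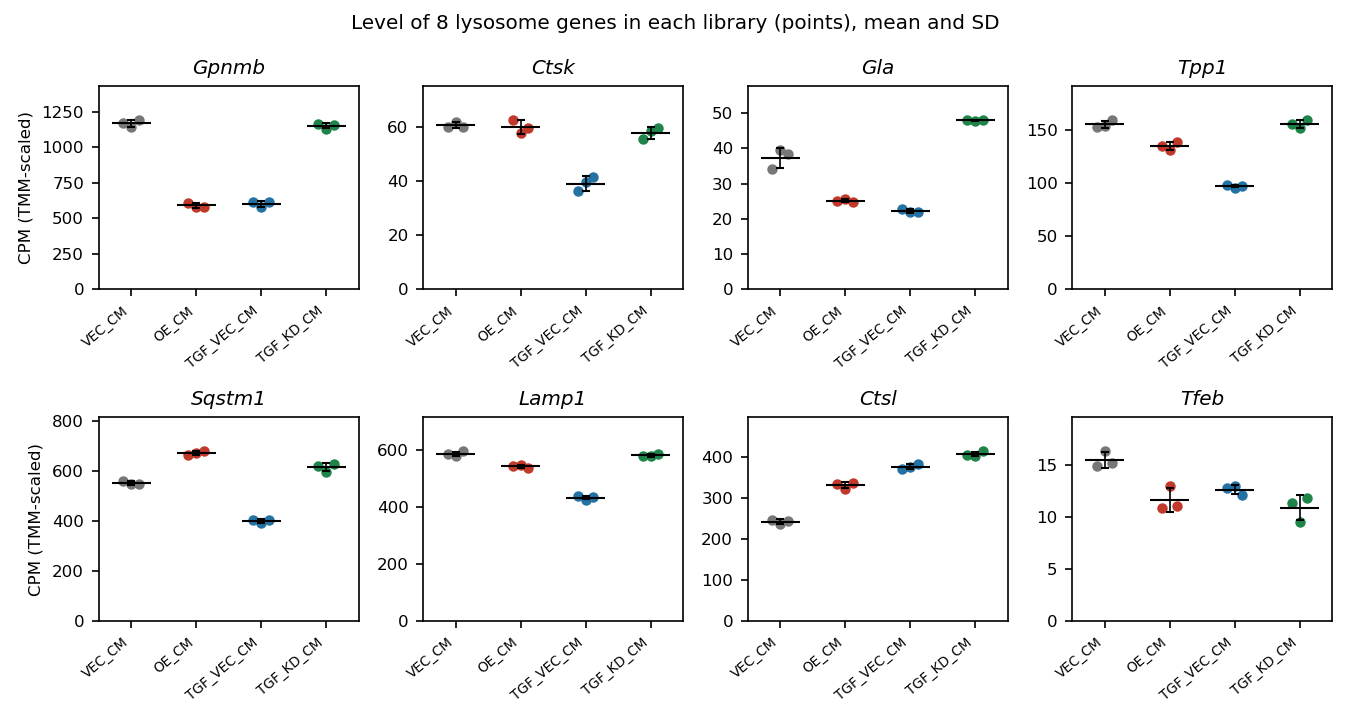
Level of 8 of the genes in each of the 12 libraries, in CPM on linear axes that start at 0, with libraries as points, group means as lines and bars of 1 SD. Gpnmb is low in OE_CM and TGF_VEC_CM, at means of 590 and 602 CPM, while Ctsk is low only in TGF_VEC_CM, at 39.0 CPM.

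The first comparison concerns medium from adipocytes with more of the microRNA, without TGF-beta1. With overexpression medium, 22 of the 35 genes (62.9%) were lower and 7 (20%) higher at an adjusted p threshold of 0.05 in edgeR's quasi-likelihood test, and 6 were not called. Over all 14400 genes, 25.7% were called lower and 28.4% higher. The median log2 fold change was -0.20 for the 35 genes and -0.01 for all genes. The largest falls were those of Gla, the proton pump subunit Atp6v1a, Tfeb and Ppt1, and the largest rises those of the cathepsins Ctsl and Ctsh, then Sqstm1 and Ctsz. None of the 35 moved as much as 2-fold. Against a change of 1.2-fold, 5 were lower (Ctsa, Ctsd, Gla, Ppt1 and Atp6v1a) and 2 higher (Ctsl and Ctsh), where 11.6% and 9.76% of all genes passed. With limma on log2(FPKM + 1), which tested 33 of the 35, 25 were lower and 4 higher, where 36.6% and 24.2% of all genes were. Upper-quartile scaling gave 25 and 5, and moved the calls over all genes to 35.1% lower and 19.4% higher.

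Inhibition medium was compared with vector medium, both with TGF-beta1. There 27 of the 35 genes (77.1%) were higher and 1, Tfeb, was lower, against 23% and 20.2% of all genes. The median log2 fold change was 0.22, and 0.00 over all genes. Gla, Tpp1, Sqstm1 and Ctsa rose most, and Gla was the 1 gene past 2-fold. The 7 genes not called were Ctsf, Ctss, Ctsz, Tfe3, Mitf, Glb1 and Naglu. Against a 1.2-fold change 11 were higher, where 5.53% of all genes were.

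The TGF-beta1 vector group was also set against the vector group without TGF-beta1. Here 20 of the 35 genes were lower and 6 higher, against 29.4% and 28.9% of all genes, with 9 not called and a median log2 fold change of -0.17. Ctsa, Gla, Tpp1 and Atp6ap1 fell most, while Ctsl, Ctsh, Ctsz and Naglu rose most, followed by Glb1 and Lipa. The labels place these groups in separate sections of the design and name no batch, so whether they were handled together is not known. This comparison shares TGF_VEC_CM with the preceding one and VEC_CM with the first, so a low or high library there enters both.

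The effects of overexpression and inhibition medium come from separate libraries, and 19 of the 35 genes (54.3%) fell with the first and rose with the second, against 8.69% of all genes. Their difference was tested in the same fit: 26 of the 35 had a lower effect of overexpression than of inhibition medium and 2, Ctsl and Ctsz, a higher one, where 26.8% and 25.6% of all genes did. The median difference was -0.43. Without any 1 library the count of 19 ran from 17 to 19, and against a 1.2-fold change it was 2 (Ctsa and Gla). Sizes did not mirror each other gene by gene: over the 35 genes, which share libraries and normalisation, the Pearson correlation of the log2 fold changes was -0.02. Another 5 genes rose with both media, namely Ctsh, Ctsl, Cd63, Gusb and Sqstm1, and Tfeb fell with both, where 5.56% of all genes rose and 4.64% fell with both. TGF_KD_CM was the highest of the 4 groups for 20 of the 35 genes, and for 16.8% of all genes. The lowest group was OE_CM for 15 of them and TGF_VEC_CM for 14, and for 32.6% and 28.7% of all genes.

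The 35 genes are more abundant than most, with a median of 104.7 CPM against 24.2 over all genes tested, and abundant genes are called more often. Among the 7744 genes with at least 20 CPM, a floor chosen after seeing the data, 42.6% were called higher and 25.2% lower with overexpression medium. Of the 30 lysosome genes there, 7 were higher and 20 lower. With inhibition medium 26 of these 30 were higher, where 32.7% of abundant genes were. With TGF-beta1, 6 of the 30 were higher and 19 lower, where 29.1% and 40.5% of abundant genes were.

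**Figure D2:**
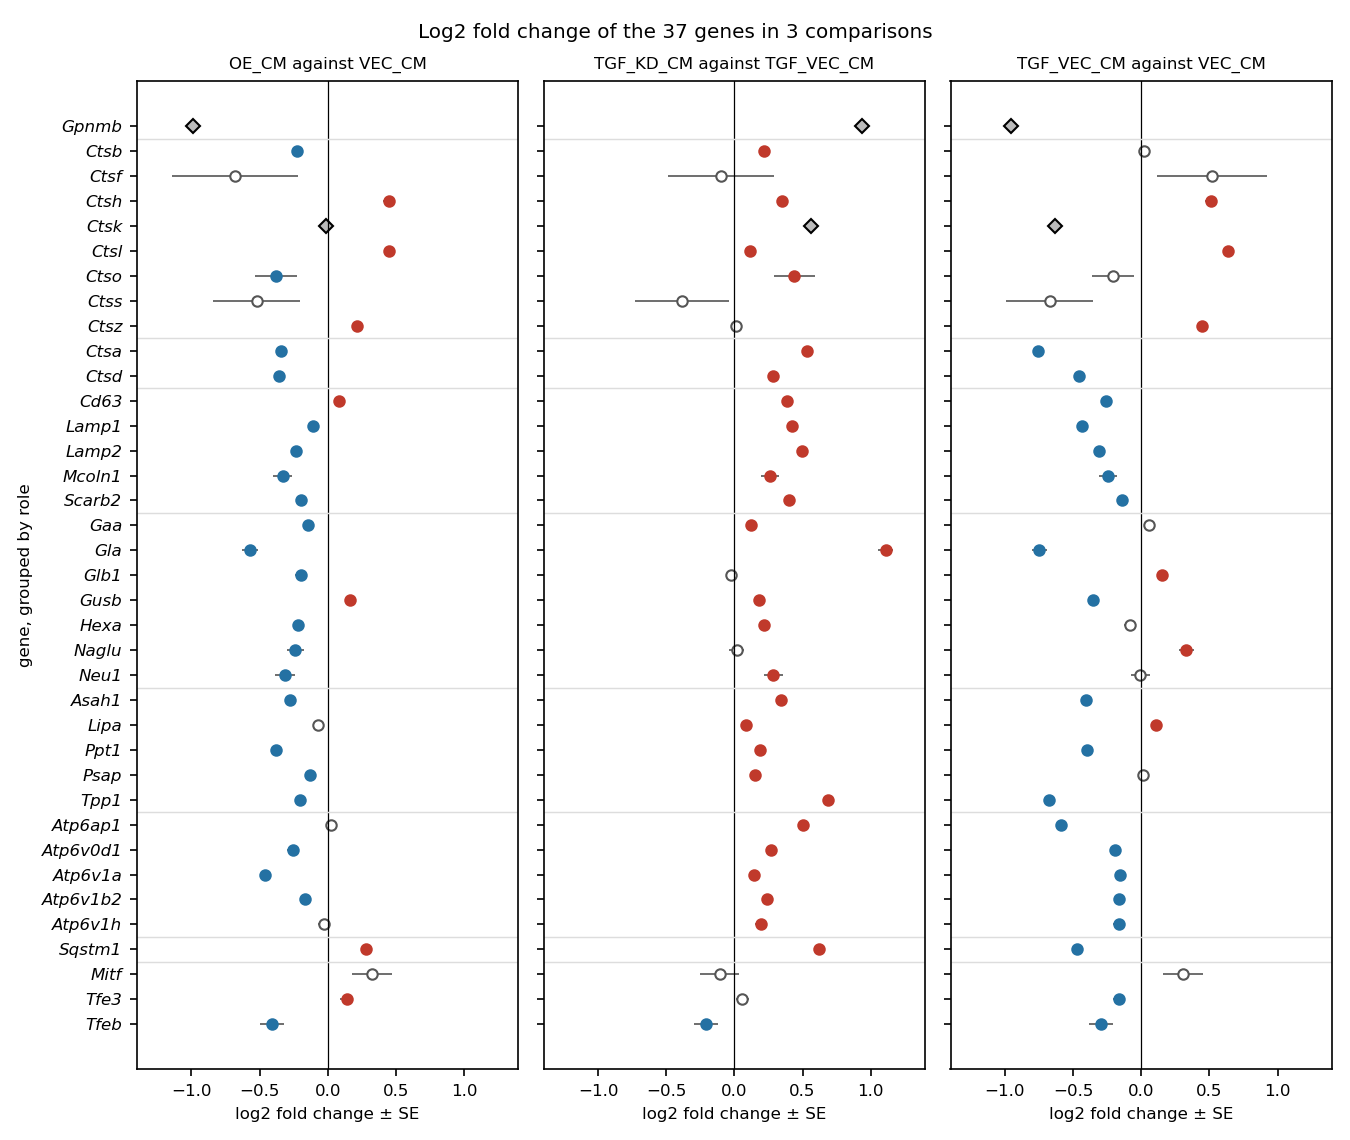
Log2 fold change of each of the 37 genes in the 3 comparisons of groups, ordered by role, with bars of 1 SE. Filled points mark genes called higher (red) or lower (blue), open points genes not called, and grey diamonds Gpnmb and Ctsk, which carry no call. Blue points prevail with overexpression medium (22 of 35) and red ones with inhibition medium (27 of 35).

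**Figure D3:**
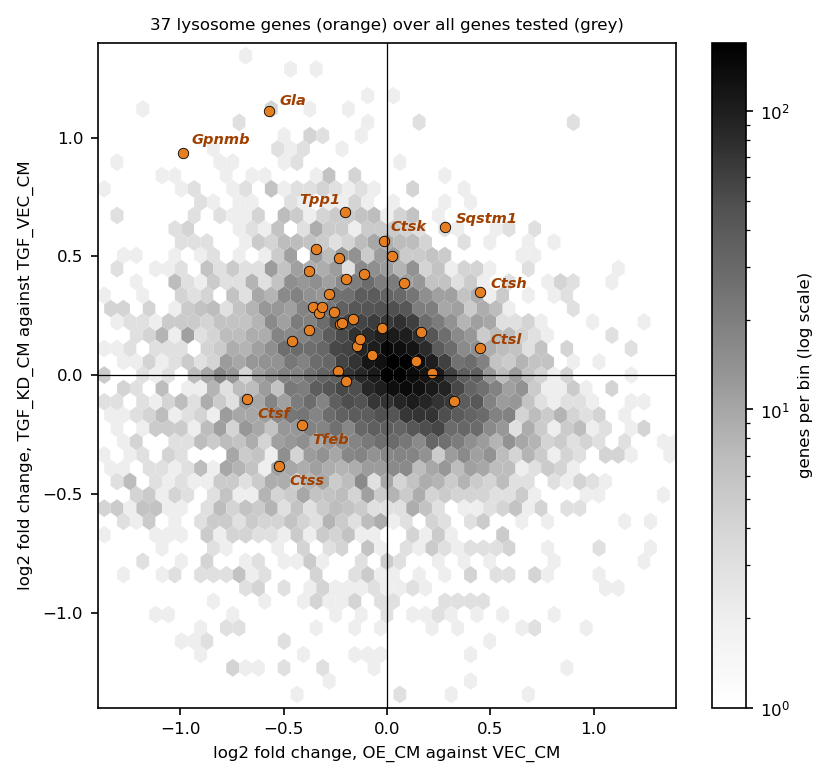
Log2 fold change with overexpression medium (horizontal axis) against that with inhibition medium (vertical axis) for the 35 genes, Gpnmb and Ctsk, over the density of all genes tested (grey, within the range of the axes). The upper left holds Gpnmb, Gla and most of the others, and Ctsk lies above 0 on the vertical axis at -0.01 on the horizontal one.

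The 3 transcription factors did not rise with inhibition medium as most of the other lysosome genes did. Tfeb stood at 14.8, 16.3 and 15.2 CPM in the VEC_CM libraries, at 10.9, 12.9 and 11.0 CPM in OE_CM, at 12.7, 12.9 and 12.1 CPM in TGF_VEC_CM and at 11.3, 9.52 and 11.8 CPM in TGF_KD_CM. It was highest in VEC_CM, with no overlap with any other group. Tfeb fell with overexpression medium by 0.41 on the log2 scale (SE 0.087, adjusted p = 5.06e-05), with TGF-beta1 by 0.29 and with inhibition medium by 0.21, the last with an adjusted p of 0.0483. That last call was lost in 9 of 22 alternatives, 4 of them a fit without 1 library: VEC_CM replicate 2 (adjusted p = 0.0545), TGF_VEC_CM replicate 1 (0.0817) or 2 (0.101), or TGF_KD_CM replicate 2 (0.273). Tfe3 stood at 58.8, 60.4 and 58.2 CPM in the VEC_CM libraries, at 64.4, 64.1 and 66.8 CPM in OE_CM, at 58.5, 49.6 and 50.4 CPM in TGF_VEC_CM and at 54.2, 55.0 and 55.7 CPM in TGF_KD_CM. Tfe3 rose with overexpression medium by 0.14 ± 0.046 (SE, adjusted p = 0.00809), a call lost with upper-quartile scaling (adjusted p = 0.349) and with limma on FPKM (0.307). It was called lower with TGF-beta1 although the libraries overlapped, and without TGF_VEC_CM replicate 2 the adjusted p there was 0.0701. Mitf stood at 3.59, 4.94 and 3.37 CPM in the VEC_CM libraries, at 5.25, 4.84 and 4.82 CPM in OE_CM, at 4.72, 5.06 and 4.97 CPM in TGF_VEC_CM and at 4.53, 4.56 and 4.59 CPM in TGF_KD_CM. Mitf was thus at a low level throughout and was called in none of the comparisons. Without VEC_CM replicate 2, its highest VEC_CM library, it was higher in OE_CM by 0.52 (adjusted p = 0.00596) and in TGF_VEC_CM by 0.50 (adjusted p = 0.00748).

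Promoter sequences from RefSeq (GRCm38.p6, 250 bases before to 50 after a start site, on the strand of the gene) were searched for the E-box at the core of CLEAR elements, CACGTG, which reads the same on both strands. Windows were found for 32 of the 37 genes. The motif stood in 12 of these 32 genes, and in 9.45% of the 18181 genes of the count table with a window. By window, it stood in 30.8% of their 39 windows and in 7.15% of all 32851. The longer form GTCACGTG, which reads CACGTGAC on the other strand, stood in 20.5% of their windows and 2.25% of all, and the form TCACGTGA in 15.4% and 0.974%. Both contain CACGTG. The M-box core of MITF, TCATGTG, reads CACATGA on the other strand, does not contain CACGTG and stood in 15.4% of their windows and 3.77% of all. The 12 genes with CACGTG were Ctsa, Ctsd, Ctsf, Ctsl, Lamp1, Mcoln1, Gla, Glb1, Gaa, Naglu, Atp6v0d1 and Atp6v1a. CLEAR elements are known from many lysosome genes, so the shares above describe the list and are no result of these libraries. The windows of Gpnmb and Ctsk held neither CACGTG nor TCATGTG, which says only that these letters are not in these windows.

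The stretches of 60 bases with the motif are shown for the genes with clustered copies or copies near the start site, with CACGTG in capitals, and for Gpnmb and Ctsk the 250 bases before the start, to set the genes without the motif beside them:
Lamp1 (chr8:13159096-13159155, plus strand): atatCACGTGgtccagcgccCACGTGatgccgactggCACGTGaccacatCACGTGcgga
Mcoln1 (chr8:3500434-3500493, plus strand): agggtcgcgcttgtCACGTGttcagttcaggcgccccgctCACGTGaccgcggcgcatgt
Ctsa (chr2:164833742-164833801, plus strand): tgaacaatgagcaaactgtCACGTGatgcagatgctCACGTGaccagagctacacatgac
Gla (chrX:134601184-134601243, minus strand): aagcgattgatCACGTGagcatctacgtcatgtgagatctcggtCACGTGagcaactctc
Atp6v0d1 (chr8:105566035-105566094, minus strand): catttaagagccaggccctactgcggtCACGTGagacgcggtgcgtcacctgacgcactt
Gpnmb (chr6:49036268-49036517, plus strand): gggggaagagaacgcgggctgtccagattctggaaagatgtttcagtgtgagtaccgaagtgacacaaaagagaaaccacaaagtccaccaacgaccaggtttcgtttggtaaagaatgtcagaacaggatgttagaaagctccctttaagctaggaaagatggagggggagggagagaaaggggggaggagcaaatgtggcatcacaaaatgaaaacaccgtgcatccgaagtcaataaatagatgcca
Ctsk (chr3:95498960-95499209, plus strand): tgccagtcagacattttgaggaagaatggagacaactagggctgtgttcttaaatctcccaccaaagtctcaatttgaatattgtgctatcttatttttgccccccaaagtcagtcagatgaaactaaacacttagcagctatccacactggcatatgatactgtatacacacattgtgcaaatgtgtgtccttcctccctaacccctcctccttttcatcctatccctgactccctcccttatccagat

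Lamp1 carried 4 copies within its stretch, at bases -61, -45, -28 and -15 from the start site, and Mcoln1 (-71 and -45), Gla (-227 and -194) and Ctsa (-12 and 6, in 1 of its windows) carried 2 each. Ctsd, whose stretch is not shown, also carried 2, at -245 and -98. Of the 12 genes with CACGTG, 10 were lower and 1 (Ctsl) higher with overexpression medium, and 9 were higher and 3 not called with inhibition medium. Of the 18 with windows that lacked it, leaving out Gpnmb and Ctsk, 9 were lower and 5 higher with overexpression medium, and 13 were higher and 1 lower with inhibition medium. Over all genes, 25.7% were lower and 28.4% higher with overexpression medium, and 23% higher and 20.2% lower with inhibition medium. The median log2 fold change with overexpression medium was -0.29 in the first set and -0.16 in the second, and with inhibition medium it was 0.20 in both. With inhibition medium both sets were thus mostly called higher. With overexpression medium 10 of 12 genes with CACGTG were lower, and 9 of 18 without it, where the 5 higher are near the share of all genes. No test was made between the sets.

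**Figure D4:**
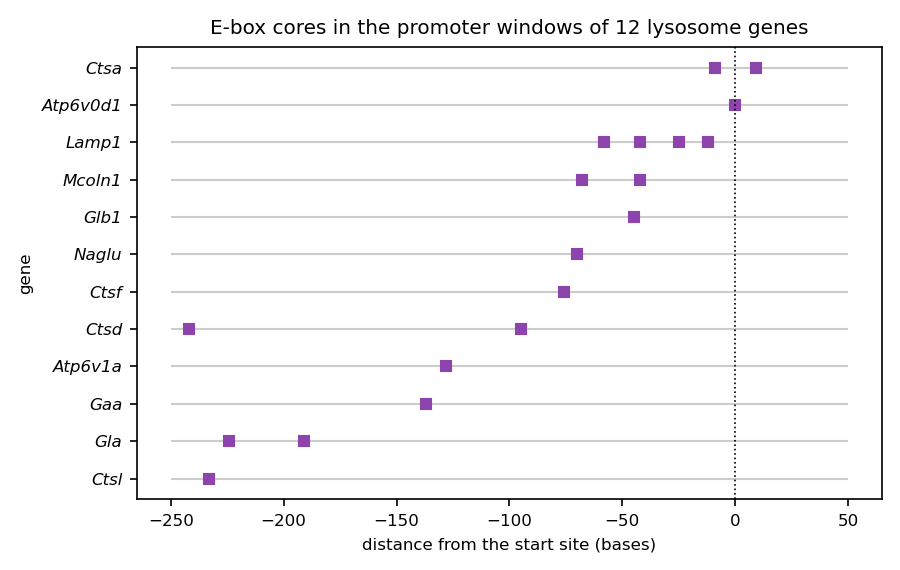
Places of CACGTG (squares) in the promoter windows of the 12 genes with a match, as distance in bases from the RefSeq start site (dotted line). Lamp1 shows 4 copies close to the start, and the copies of Gla and Ctsl and the first copy of Ctsd (-245) lie far before it.

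The aspartic cathepsin Ctsd and the serine carboxypeptidase Ctsa had the directions of Gpnmb in all 3 comparisons of groups. Ctsa stood at 159, 159 and 165 CPM in the VEC_CM libraries, at 132, 121 and 128 CPM in OE_CM, at 94.7, 94.1 and 97.3 CPM in TGF_VEC_CM and at 136, 135 and 142 CPM in TGF_KD_CM. The groups did not overlap. Ctsa fell with overexpression medium by 0.34 (SE 0.032, adjusted p = 1.34e-14) and with TGF-beta1 by 0.75, and rose with inhibition medium by 0.53 ± 0.033 (SE, adjusted p = 5.62e-22). Ctsd, which cuts proteins at acid pH, moved by -0.36, -0.46 and 0.29 in the same 3 comparisons and was called in each. Ctsa overlaps Pltp and Neurl2 in RefSeq, and the strand setting of the counting is not given, so reads of the overlap cannot be told apart.

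The cysteine cathepsins split. Ctsl and Ctsh rose in every comparison of groups, Ctsz rose in 2, and Ctsb and Ctso fell with overexpression medium and rose with inhibition medium. Ctsl stood at 246, 236 and 242 CPM in the VEC_CM libraries, at 334, 321 and 335 CPM in OE_CM, at 369, 374 and 382 CPM in TGF_VEC_CM and at 405, 401 and 413 CPM in TGF_KD_CM. Ctsh stood at 43.3, 43.0 and 43.2 CPM in the VEC_CM libraries, at 60.1, 59.3 and 57.6 CPM in OE_CM, at 62.0, 58.4 and 64.1 CPM in TGF_VEC_CM and at 78.1, 78.8 and 78.2 CPM in TGF_KD_CM. In both genes every VEC_CM library was lowest and every TGF_KD_CM library highest. Ctsl, a broad endopeptidase, rose by 0.45 ± 0.026 (SE) with overexpression medium, by 0.64 with TGF-beta1 and by 0.11 with inhibition medium (adjusted p from 6.53e-32 to 0.000121). Ctsh, an aminopeptidase, rose by 0.45 ± 0.044, 0.51 ± 0.043 and 0.35 ± 0.041 in the same order. Ctsz stood at 215, 215 and 223 CPM in the VEC_CM libraries, at 254, 247 and 258 CPM in OE_CM, at 297, 287 and 304 CPM in TGF_VEC_CM and at 295, 301 and 299 CPM in TGF_KD_CM. Ctsz, a carboxypeptidase, rose by 0.22 ± 0.027 with overexpression medium and 0.44 ± 0.027 with TGF-beta1, and its TGF-beta1 groups overlapped. These 3 genes thus ran against Gpnmb where the vector group was the reference.

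Ctsb, an abundant cathepsin at 599 ± 9.11 CPM in VEC_CM (SD, n = 3), fell by 0.23 with overexpression medium and rose by 0.22 with inhibition medium, with no call for TGF-beta1. Ctso stood between 3.07 and 5.45 CPM in the 12 libraries, and its calls (fall of 0.38, rise of 0.44) were each lost when 1 of several libraries was left out, with adjusted p up to 0.173 without VEC_CM replicate 2 and 0.108 without TGF_VEC_CM replicate 3. Ctsf was near the limit of detection, from 0.226 to 0.839 CPM, where 3 counts amount to at most 0.0899 CPM, and was not called. Ctss stood at 7.54, 6.80 and 7.42 CPM in the VEC_CM libraries, at 8.44, 3.38 and 3.22 CPM in OE_CM, at 4.36, 5.22 and 4.07 CPM in TGF_VEC_CM and at 3.47, 3.53 and 3.46 CPM in TGF_KD_CM. Ctss, the cathepsin of antigen-presenting cells, was uneven within OE_CM and was not called in any comparison. Without OE_CM replicate 1 it was lower in OE_CM by 1.14 (adjusted p = 9.13e-09) and in TGF_VEC_CM by 0.66 (adjusted p = 1.81e-05).

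All 5 membrane proteins rose with inhibition medium and fell with TGF-beta1, and 4 fell with overexpression medium. Of all genes, 23%, 29.4% and 25.7% were called in these directions. Lamp1, a heavily glycosylated coat protein of the lysosome, stood at 586 ± 8.12, 543 ± 5.09, 432 ± 6.83 and 581 ± 4.87 CPM in VEC_CM, OE_CM, TGF_VEC_CM and TGF_KD_CM (SD, n = 3). Lamp2, a related protein that serves as receptor in chaperone-mediated autophagy, moved by -0.23 with overexpression medium and 0.49 with inhibition medium. Scarb2, which carries glucocerebrosidase to lysosomes, moved by -0.20 and 0.40, and the calcium channel Mcoln1 by -0.33 and 0.26. For Mcoln1 the second call was lost without TGF_KD_CM replicate 3 (adjusted p = 0.0594). The tetraspanin Cd63 was the exception, with a small rise of 0.08 with overexpression medium that turned to -0.004 under upper-quartile scaling (adjusted p = 0.901).

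Among the 7 glycosidases, Gla, the alpha-galactosidase deficient in Fabry disease, was nearest to Gpnmb. Gla stood at 34.1, 39.4 and 38.4 CPM in the VEC_CM libraries, at 25.1, 25.5 and 24.8 CPM in OE_CM, at 22.8, 22.0 and 21.9 CPM in TGF_VEC_CM and at 48.0, 47.8 and 48.1 CPM in TGF_KD_CM. No group overlapped another, and OE_CM and TGF_VEC_CM lay closest together at the low end. Gla fell with overexpression medium by 0.57 (SE 0.057, adjusted p = 1.16e-13) and with TGF-beta1 by 0.75, and rose with inhibition medium by 1.11 ± 0.056 (SE, adjusted p = 1.5e-26). Hexa, Gaa and Neu1, which remove sugars from gangliosides, glycogen and sialylated chains, fell with overexpression medium by 0.22, 0.15 and 0.31 and rose with inhibition medium by 0.22, 0.12 and 0.28. Naglu stood at 29.8, 29.1 and 31.6 CPM in the VEC_CM libraries, at 26.3, 22.9 and 27.7 CPM in OE_CM, at 39.3, 37.2 and 37.4 CPM in TGF_VEC_CM and at 39.8, 37.8 and 37.6 CPM in TGF_KD_CM. Naglu, which degrades heparan sulfate, was higher in both TGF-beta1 groups than in the others, rose by 0.33 ± 0.057 with TGF-beta1 (adjusted p = 9.62e-07) and was not called with inhibition medium. The beta-galactosidase Glb1 followed with a rise of 0.15 with TGF-beta1. The glucuronidase Gusb ran the other way, with 0.17 with overexpression medium, -0.35 with TGF-beta1 and 0.18 with inhibition medium. The first of these was not called with limma on FPKM (adjusted p = 0.0552).

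Of the 5 lipid hydrolases and related proteins, all rose with inhibition medium and 4 fell with overexpression medium, against 23% and 25.7% of all genes. Tpp1 stood at 153, 154 and 159 CPM in the VEC_CM libraries, at 135, 131 and 139 CPM in OE_CM, at 97.9, 95.7 and 97.5 CPM in TGF_VEC_CM and at 156, 152 and 159.6 CPM in TGF_KD_CM. Tpp1, a tripeptidyl peptidase, was lowest in TGF_VEC_CM with no overlap, fell there by 0.68 (SE 0.031, adjusted p = 8.75e-29) and rose with inhibition medium by 0.68 ± 0.031 (SE, adjusted p = 1.11e-28). Ppt1 stood at 109, 109 and 103 CPM in the VEC_CM libraries, at 81.0, 82.2 and 83.9 CPM in OE_CM, at 83.3, 80.3 and 80.8 CPM in TGF_VEC_CM and at 94.6, 90.4 and 93.8 CPM in TGF_KD_CM. Ppt1, the palmitoyl-protein thioesterase, was highest in VEC_CM, fell by 0.38 with overexpression medium (adjusted p = 1.41e-14) and rose by 0.19 with inhibition medium. The ceramidase Asah1 moved by -0.28 and 0.34, and Psap, the precursor of the saposins, by -0.13 and 0.15. The acid lipase Lipa lay at the threshold: it was not called with overexpression medium (log2 fold change -0.07 ± 0.032 SE, adjusted p = 0.052) but was in 17 of 22 alternatives, and its small rise of 0.08 with inhibition medium was lost in 15. Those 15 include the fits without TGF_KD_CM replicate 2 (adjusted p = 0.193) and without TGF_VEC_CM replicate 1 (0.152).

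All 5 proton pump genes rose with inhibition medium and fell with TGF-beta1, and 3 fell with overexpression medium. The shares of all genes were 23%, 29.4% and 25.7%. Atp6v1a stood at 209, 209.6 and 210.5 CPM in the VEC_CM libraries, at 155, 158 and 145 CPM in OE_CM, at 186, 187 and 192 CPM in TGF_VEC_CM and at 207, 205 and 212 CPM in TGF_KD_CM. Atp6v1a, the catalytic subunit, was lowest in OE_CM with no overlap, by 0.46 on the log2 scale (SE 0.029, adjusted p = 6.12e-22). Atp6v0d1 and Atp6v1b2 fell by 0.26 and 0.17 there. Atp6ap1 stood at 224, 227 and 229.8 CPM in the VEC_CM libraries, at 229, 230.0 and 233 CPM in OE_CM, at 154, 153 and 144 CPM in TGF_VEC_CM and at 212, 211 and 215 CPM in TGF_KD_CM. Atp6ap1, an accessory subunit, was therefore like Ctsk: it was not called with overexpression medium (0.02 ± 0.027 SE), fell by 0.59 with TGF-beta1 (adjusted p = 2.44e-28) and rose by 0.50 ± 0.028 with inhibition medium (adjusted p = 3.57e-24). Under upper-quartile scaling the first value was -0.06, with an adjusted p of 0.0462. Atp6v1h was not called with overexpression medium either (-0.02).

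Sqstm1 stood at 560.2, 545 and 548 CPM in the VEC_CM libraries, at 663, 669 and 677 CPM in OE_CM, at 403, 390.4 and 401 CPM in TGF_VEC_CM and at 617, 595 and 625 CPM in TGF_KD_CM. Sqstm1 encodes p62, which binds ubiquitinated cargo for autophagy and is also a target of the stress factor NRF2. It rose with overexpression medium by 0.28 ± 0.024 (SE, adjusted p = 1.6e-16) and with inhibition medium by 0.62 ± 0.024 (adjusted p = 6.75e-33), and fell with TGF-beta1 by 0.47, with no overlap between any of these groups.

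The patterns of Gpnmb and Ctsk over the 4 group means were compared with those of all other 14399 genes tested, by the root mean square difference of centred log2 CPM. Gpnmb was nearest to Gm20655, Xdh (0.058), Tenm3, 9630013D21Rik and Gm38684. Xdh, which encodes xanthine dehydrogenase, stood at 251, 118, 134 and 245 CPM in VEC_CM, OE_CM, TGF_VEC_CM and TGF_KD_CM, and the other 4 were below 5 CPM. Among the lysosome genes Gla came nearest to Gpnmb, at rank 39 (0.167), then Ctso at rank 476, and Ctsk stood at rank 2170 (0.407). Ctsk was nearest to A530013C23Rik, Gm41949, Cndp2, Atp6ap1 and Rnh1, so that Atp6ap1 was the fourth of all genes, with a difference of 0.028. A530013C23Rik stood at 0.365 to 1.19 CPM and Gm41949 at 0.920 to 2.02 CPM, levels with few counts. Tenm3 and A530013C23Rik were called in no comparison of groups. Tpp1 followed at rank 190, and Gpnmb stood at rank 9908. Gm20655 lies within Txlnb in RefSeq, and Xdh, Gm41949, Gm38684 and Tenm3 overlap other genes (for Xdh, Gm18068, which has no row in the count table), as do 13 of the 37 lysosome genes. Reads of such overlaps cannot be told apart without a strand setting.

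**Figure D5:**
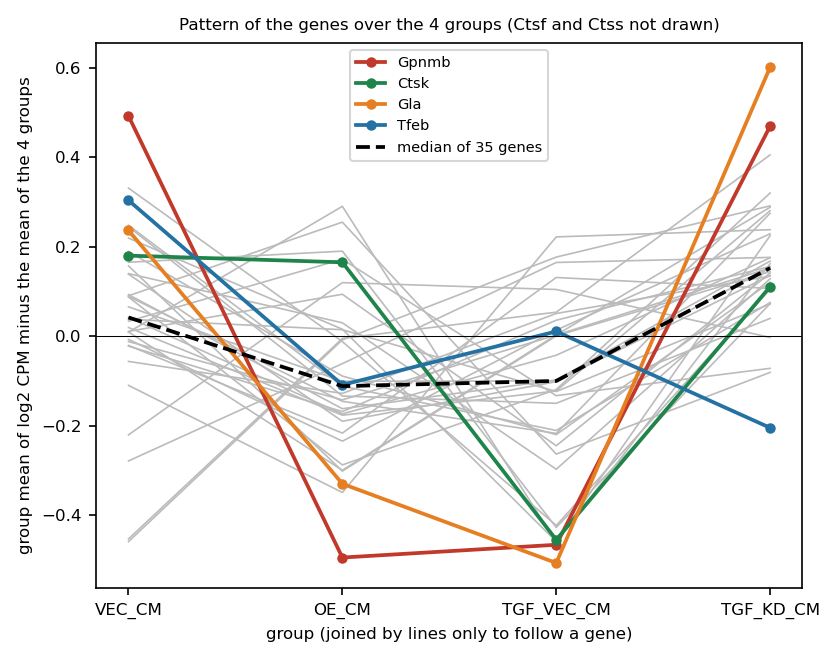
Centred log2 CPM of the group means for Gpnmb, Ctsk and the 35 other genes, with the median of the 35 as a dashed line, over the 4 groups. Gla and Tfeb are in colour, and Ctsf and Ctss are not drawn. The median is 0.04 in VEC_CM, -0.11 in OE_CM, -0.10 in TGF_VEC_CM and 0.15 in TGF_KD_CM while Gpnmb is near its highest in both VEC_CM and TGF_KD_CM.

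Further genes were taken from 14 lists with 189 entries, of which 154 were tested. Their counts stand beside 28.4% of all genes higher and 25.7% lower with overexpression medium, 23% and 20.2% with inhibition medium, and 28.9% and 29.4% with TGF-beta1. Of 30 other hydrolases and cofactors, 17 were lower and 8 higher with overexpression medium, and 12 were higher and 7 lower with inhibition medium, so that the 8 and the 7 are near those shares. The GM2 activator Gm2a fell with both media, by 0.78 and 0.60, and rose by 0.71 with TGF-beta1. The sphingomyelinase Smpd1 fell by 0.51 with overexpression medium, the iduronidase Idua rose by 0.56 with inhibition medium, and the hyaluronidase Hyal1 rose by 0.97 with TGF-beta1. Of 18 other membrane proteins, 10 were lower and 1 higher with overexpression medium, and 10 higher and 1 lower with inhibition medium. The cystine exporter Ctns fell by 0.42 and rose by 0.59 in these comparisons, the potassium channel Tmem175 fell by 0.37 in the first, and the peptide transporter Abcb9 fell by 1.15 in the second. Among 12 further proton pump subunits, 9 were higher and 3 not called with inhibition medium, led by Tcirg1 (0.64) and Atp6ap2 (0.45). With overexpression medium 4 were lower and 1 higher, Atp6v0a1 at -0.58 and Atp6v1g1 at 0.75 being the largest. With TGF-beta1, hydrolases divided into 9 higher and 11 lower, membrane proteins into 3 and 4, and pump subunits into 2 and 6.

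Genes that deliver enzymes to lysosomes numbered 16, of which 3 were higher and 4 lower with overexpression medium and 8 higher and 1 lower with inhibition medium. The counts with overexpression medium are no larger than the 28.4% and 25.7% of all genes. Sort1 and Gnptg fell with the first by 0.85 and 0.43, and Nagpa and the tethering subunit Vps41 rose with the second by 0.48 and 0.42. Of 20 autophagy genes, 12 rose and 2 fell with inhibition medium, led by Calcoco1 (0.59) and the receptor Nbr1 (0.53). With overexpression medium 6 were higher and 7 lower, among them the receptor Optn at 0.88 and Tecpr1 at -0.72. Of 18 genes listed for the mTORC1, Rag and folliculin system that controls TFEB, 11 rose and 2 fell with inhibition medium. Flcn, a known transcriptional target of TFEB that in turn restrains it, rose most, by 0.77 ± 0.047 (SE, adjusted p = 2.5e-22), followed by Tsc1 (0.45). With overexpression medium 7 were lower and 2 higher. Ppargc1a, which was on this list but is not a part of that system, fell by 2.02, while Rheb rose by 0.30. With TGF-beta1, 13 of these 18 were lower and 3 higher, Lamtor4 (-0.66) and Tsc1 (-0.61) the most, and autophagy genes were lower in 11 and higher in 4. Among 6 inhibitors of cathepsins, the serpin Serpinb6b fell by 1.13 and Cst6 by 0.63 with overexpression medium, where 3 were higher and 3 lower. With inhibition medium 3 were higher and 1 lower, with Serpinb6b at 0.48 and the cystatin Cstb at 0.28.

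Markers of other cells were measured, among them those of macrophages, osteoclasts and melanocytes, which also make Gpnmb, Ctsk or Ctss. The 16 macrophage markers had a summed level of 50.5 to 53.1 CPM in the libraries of VEC_CM and of 25.4 to 42.1 CPM in those of OE_CM. With TGF-beta1 the sum was 38.1 to 42.2 CPM for vector medium and 35.1 to 37.1 CPM for inhibition medium, and no marker was at 0 in a whole group. Of the 12 tested, 4 fell with overexpression medium, including Laptm5 (by 1.32) and Lyz2 (by 0.80), and 5 fell with TGF-beta1. With inhibition medium 1 rose and 2 fell, Ptprc by 1.47 and Lyz2 by 0.45. Adgre1 stood at 1.61, 1.91 and 2.08 CPM in the VEC_CM libraries, at 2.17, 0.718 and 0.532 CPM in OE_CM, at 0.731, 0.622 and 0.380 CPM in TGF_VEC_CM and at 1.08, 0.760 and 0.993 CPM in TGF_KD_CM. Adgre1, the F4/80 antigen, was thus high in the same OE_CM replicate 1 in which Ctss was high. Gpnmb stood at a mean of 1169.6 CPM in VEC_CM, where all 16 macrophage markers came to at most 53.1 CPM, and it was higher with inhibition medium where that sum was not higher. The part of macrophages in its lower values in OE_CM and TGF_VEC_CM, and in those of Ctss, was not tested. The 7 osteoclast markers in the table summed to between 1.35 and 3.45 CPM in any library and the 6 markers of melanocytes and Schwann cells to between 2.14 and 3.13 CPM. The 8 adipocyte markers came to 265 to 280.4 CPM in VEC_CM, 98.1 to 102 CPM in OE_CM, 187 to 199 CPM in TGF_VEC_CM and 154 to 164 CPM in TGF_KD_CM, and of 6 tested Fabp4 fell with overexpression medium, by 1.60, and Cidec rose, by 0.74. The 6 cardiomyocyte markers came to 70.0 to 75.2 CPM in VEC_CM and 163 to 167 CPM in OE_CM, and to 97.2 to 115.9 CPM in the groups with TGF-beta1, and of 2 tested Tnnt2 rose with overexpression medium, by 1.18. Both sums differed between VEC_CM and OE_CM, but most of their genes were not called there. Of the adipocyte markers tested, 4 were not called, and of the cardiomyocyte markers tested, 1 was not. Myh6, Myh7, Tnni3 and Actc1 did not pass the filter on low counts. The part of either cell type in the lysosome genes was not tested. Of the fibroblast markers, Col1a1 and Col1a2 were abundant, at 1303 and 4379 CPM in VEC_CM, but Dcn, Lum and Thy1 stood at no more than 0.54 CPM in any library. Tcf21 had no row in the count table. Col3a1, Pdgfra, Pdgfrb and Dpt passed the filter on low counts, but so did Thy1, so passing it does not show a high level. All 9 fibroblast markers in the table summed to 6015 to 6174 CPM in VEC_CM.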

How the data were processed

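Messenger RNA was measured in 12 libraries of mouse cardiac fibroblasts, 3 in each of 4 groups taken from the sample titles. The deposited table holds whole-number counts per gene with no normalization, and the deposited FPKM table holds the same counts divided by library total and gene length, which was checked to within 0.000198%. Reads were mapped to GRCm38, per the submitters' processing notes. For the aligner, counter, strand setting and annotation, no name was found: not given in the sources used here. Libraries were prepared from 1.3 µg of RNA, per the labels' protocols.

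Genes were filtered with filterByExpr, scaled by TMM and fitted with edgeR 4.0.16 (R 4.3.3) in 1 quasi-likelihood fit of 4 group means over all 12 libraries. P-values were adjusted by Benjamini and Hochberg over 14400 genes, and 10219 symbols were not tested. The common biological coefficient of variation was 0.0341. CPM values used the TMM library sizes, and a prior count of 2 on the log scale for patterns. Alternatives were RLE and upper-quartile factors, DESeq2 1.42.0, other filters, only the groups compared, a replicate block, a test against 1.2-fold (glmTreat), limma 3.58.1 on log2(FPKM + 1) or log2(FPKM + 0.1), and leaving out each library. The steps were tested on simulated data. Intervals of depth cover counting error only.

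The genes and lists were chosen with earlier results of these data known. Values per library are given for Gpnmb, Ctsk, Tfeb, Tfe3, Mitf and the called genes with the 4 largest rises and 4 largest falls in a comparison. Ctss, Adgre1, and which alternatives to quote were chosen after their values were seen. From each further list up to 2 genes with the largest called change were named, and for likeness the 5 nearest genes. Of 189 list entries, 183 were in the table. Promoter windows and gene positions came from RefSeq tables of GRCm38.p6, in which all 37 genes were placed.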

Additional observations from a re-analysis of the deposited data

How the results depend on the processing

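Counts below are of the 35 genes without Gpnmb and Ctsk. Tested with edgeR against a change of 1.2-fold, in place of any change, 2 were higher and 5 lower with overexpression medium. Of all genes, 9.76% and 11.6% were. With inhibition medium 11 were higher and 0 lower, where 5.53% and 4.93% of all genes were. With TGF-beta1 it was 3 higher and 11 lower, where 14% and 10.8% of all genes were. A higher effect of overexpression than of inhibition medium was called for 1 gene and a lower one for 19. The shares of all genes were 13.5% and 14.9%. These counts fall because that test asks for larger changes. With limma on log2(FPKM + 1) and on log2(FPKM + 0.1), 33 of the 35 were tested. Of these, 4 were higher with overexpression medium and 0 lower with inhibition medium. The single fall with inhibition medium, that of Tfeb, gave a count of 0 with DESeq2 and with no filter, and the count was 2 with only the groups compared. The cause was not tested. Without any 1 library, higher and lower counts ran from 7 to 8 and 21 to 23 with overexpression medium, 24 to 27 and 0 to 2 with inhibition medium, 6 to 7 and 19 to 21 with TGF-beta1, and 2 to 3 and 25 to 27 for the difference of effects. Under upper-quartile scaling, Cd63 with overexpression medium turned to -0.0040 and Atp6ap1 to -0.062 on the log2 scale. The values of single genes were followed for all 37 genes, Gpnmb and Ctsk included. Over the alternatives, 3005 of these values kept direction and call, 101 lost a call and 48 gained one. Another 43 uncalled values changed sign and stayed uncalled. The last 2 (Cd63 and Atp6ap1, above) changed sign and call, neither from one call to the opposite one. Deviations from the group means correlated near 0 between same-numbered replicates (r from -0.037 to 0.044 over 18 pairs). Between other numbers r ran from -0.039 to 0.037 over 36 pairs. Such weak correlations over all genes do not settle whether a number marks a shared culture or day, and the labels do not say. With the replicate number as a block, 8 were higher and 23 lower with overexpression medium, 27 and 1 with inhibition medium, 6 and 20 with TGF-beta1, and 2 and 26 for the difference. Ctsf, Ctso, Ctss and Mitf lie below 10 CPM, where the depth gives few counts.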
